A study of Mus musculus with 12 samples.

Results

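The 10 genes described here encode the T cell receptor complex and the first proteins that act on it: the CD3 chains Cd3g, Cd3d and Cd3e, the zeta chain Cd247, the β constant regions Trbc1 and Trbc2, the kinases Lck and Zap70, the scaffold Lat and the inhibitory receptor Cd5. They were taken by symbol from the count tables of the series, which list 46078 genes, and all 10 passed the filter on low counts that left 14009 genes for testing. RNA was sequenced from CD8 T cells of C57BL/6 mouse spleen at day 7 of culture, in 4 groups of 3 libraries. The TGFβ + RA cultures received transforming growth factor beta together with all-trans retinoic acid, the TGFβ and RA cultures received one of these agents, and the IL-2 + IL-15 cultures received neither. Every group was cultured in the interleukins IL-2 and IL-15, so no comparison tests those cytokines. The series set out to generate tissue-resident memory (Trm) CD8 T cells in culture, and the doses, the stimulus that started the cultures and the purity of the cells are not given in the sources used here. Libraries are labelled as biological replicates, without stating whether each came from its own mouse, and p-values therefore measure the spread between these cultures, which may be technical.

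The αβ T cell receptor has no signalling tail of its own. Its α and β chains bind peptide on MHC, and the associated CD3γε and CD3δε pairs and the CD247 (ζ) homodimer carry the tyrosine motifs, called ITAMs, that pass the signal on. LCK, which is bound to the tail of the CD8 coreceptor, phosphorylates these motifs, ZAP-70 docks on them and phosphorylates LAT, and LAT then gathers the enzymes that raise calcium and activate Ras. CD5 is recruited to the engaged receptor and dampens it, and in mouse T cells its level is known to follow the strength of receptor signalling.

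Library totals were 18300206 to 33477037 counts. The CD8 genes Cd8a and Cd8b1 were high in every library, with a summed level of 4248 to 4415 CPM (counts-per-million, TMM-scaled) in TGFβ + RA libraries, 4014 to 4201 CPM in TGFβ libraries, 1545 to 1979 CPM in RA libraries and 1873 to 2331 CPM in IL-2 + IL-15 libraries. Cd4 reached at most 70 counts and the B cell genes Ms4a1 and Pax5 at most 1 count in a library. Nearly all of the summed level of the CD4 T cell genes Cd4, Zbtb7b and Cd40lg came from Zbtb7b. This summed level was 26.1 to 31.8 CPM in TGFβ + RA and 29.2 to 35.3 CPM in TGFβ libraries. It was 73 to 90.9 CPM in RA and 66.8 to 74.6 CPM in IL-2 + IL-15 libraries. That of 5 B cell genes, nearly all Cd79b, was 21.8 to 25.9 CPM in TGFβ + RA, 27.8 to 30.4 CPM in TGFβ, 16 to 18.3 CPM in RA and 12.8 to 16.3 CPM in IL-2 + IL-15 libraries. The part of such cells in the results was not tested. RA replicate 3 stood apart from the other RA libraries: chi-square divided by its degrees of freedom, over genes, was 24.0 and 20.4. IL-2 + IL-15 replicate 1 stood apart less (9.27 and 12.5). TGFβ + RA replicate 3 held 323 Lyz2, 177 S100a9 and 97 S100a8 counts, myeloid genes that reached at most 23, 1 and 0 counts in the other libraries. Adgre1, Cd14 and Csf1r reached at most 6 counts in any library. Results are therefore also given without these 3 libraries.

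With both agents present, the signal-carrying CD3 chains and the scaffold Lat were higher than with neither and the inhibitor Cd5 was lower, while the kinase Zap70, the zeta chain and Trbc1 were not called. Between TGFβ + RA and IL-2 + IL-15 cultures, 6 of the 10 genes were called higher (Cd3g, Cd3e, Lat, Cd3d, Trbc2 and Lck) and Cd5 was called lower, by edgeR's quasi-likelihood test at an adjusted p under 0.05. Of all tested genes, 63.2% were called there, 30.8% higher and 32.4% lower. The groups did not overlap for 7 of the 10 genes, and for 69.9% of all genes. Between TGFβ and IL-2 + IL-15 cultures, 4 were higher (Cd3g, Lat, Cd3e and Cd3d) and 4 lower (Cd5, Trbc1, Zap70 and Trbc2), with 43.1% of all genes called, 20.7% higher and 22.4% lower. Here 8 of the 10 did not overlap, and 56.1% of all genes. Between RA and IL-2 + IL-15 cultures, 4 were higher (Zap70, Cd3g, Cd3e and Trbc2) and 4 lower (Cd5, Lat, Cd247 and Lck), with 26.7% of all genes called, 12.4% higher and 14.3% lower. Again 8 of the 10 did not overlap, and 36% of all genes. The RA count fell to 5 of the 10, 3 higher and 2 lower, when RA replicate 1 or IL-2 + IL-15 replicate 2 or 3 was left out (22.3%, 22.1% and 20.8% of all genes called), and when only the groups compared were fitted (19.4% of all genes). These comparisons share their 3 control libraries.

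TGFβ + RA cultures were also set against each single agent. They exceeded TGFβ cultures for 6 genes (Cd3e, Cd3g, Trbc2, Trbc1, Zap70 and Lat) and were lower for Cd5, with 43% of all genes called, 20.3% higher and 22.7% lower. The groups did not overlap for 9 of the 10, and for 57.9% of all genes. Against RA cultures they were higher for 6 genes (Lat, Cd3g, Cd3e, Lck, Cd247 and Cd3d) and lower for Cd5 and Zap70, with 60.2% of all genes called, 29.4% higher and 30.8% lower. There 8 of the 10 did not overlap, and 64.5% of all genes.

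The median log2 difference of the 10 genes was 0.18 between TGFβ + RA and IL-2 + IL-15, where the median over all tested genes was 0.0016. The median size regardless of sign was 0.26 for the 10 genes and 0.37 over all. Between TGFβ and IL-2 + IL-15 the 10 genes had a median of 0.015 and a median size of 0.22, against 0.0012 and 0.23 over all genes. Between RA and IL-2 + IL-15 these were 0.041 and 0.21, against -0.0014 and 0.16 over all genes. Without the 3 libraries named above, the number of the 10 genes called was 6 between TGFβ + RA and IL-2 + IL-15 (58.1% of all genes tested), 8 between TGFβ and IL-2 + IL-15 (43% of all), and 7 between RA and IL-2 + IL-15 (32.1% of all). It was 7 between TGFβ + RA and TGFβ (43.5% of all) and 8 between TGFβ + RA and RA (59.3% of all). In bulk RNA, fewer cells that express a gene and less RNA per cell cannot be told apart.

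**Figure D1:**
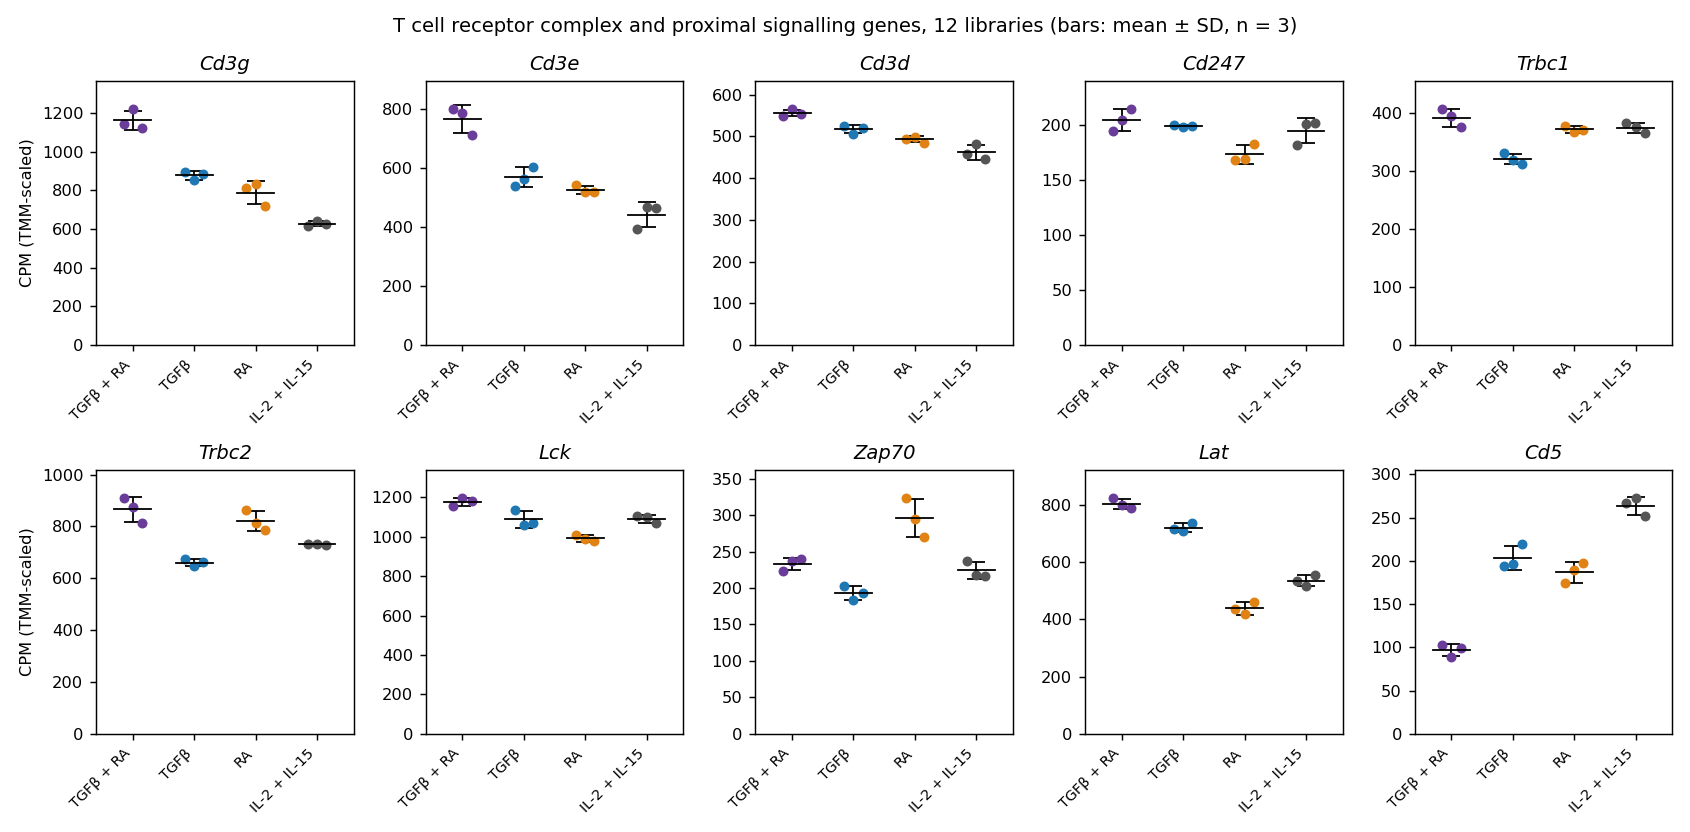
Level of each of the 10 genes in the 12 libraries, in TMM-scaled CPM on axes that start at 0; points are libraries, horizontal bars group means and vertical bars SD (n = 3). Cd3g lies at 1123 to 1218 CPM in TGFβ + RA libraries, above the 615 to 639 CPM of IL-2 + IL-15 libraries, and Cd5 lies at 88.6 to 103 CPM in TGFβ + RA libraries, below the 252 to 273 CPM of IL-2 + IL-15 libraries.

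The CD3 chains lie side by side on chromosome 9 of GRCm38. Cd3g (ENSMUSG00000002033) spans 44969572 to 44980431 on the minus strand. Cd3d (ENSMUSG00000032094) spans 44981786 to 44987339 on the plus strand, and Cd3e (ENSMUSG00000032093) 44998740 to 45009627 on the minus strand. Cd3g and Cd3d point away from each other with 1355 bases between their starts, and the 3 genes fit in 40056 bases. Their upstream sequences are shown because all 3 neighbours were higher with both agents than with neither. Each is the 250 bases before the RefSeq start (GRCm38.p6), 5′ to 3′ on the gene's own strand, with E-box (CANNTG), ETS core (GGAAGT or its complement ACTTCC) and RUNX (TGTGGT or its complement) letters in capitals.
Cd3g, chr9:44980432-44980681, minus strand: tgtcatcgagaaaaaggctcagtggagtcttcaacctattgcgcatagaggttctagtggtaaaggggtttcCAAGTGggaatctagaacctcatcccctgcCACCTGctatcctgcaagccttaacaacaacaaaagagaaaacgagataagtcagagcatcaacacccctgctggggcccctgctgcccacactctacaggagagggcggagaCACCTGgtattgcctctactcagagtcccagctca
Cd3d, chr9:44981536-44981785, plus strand: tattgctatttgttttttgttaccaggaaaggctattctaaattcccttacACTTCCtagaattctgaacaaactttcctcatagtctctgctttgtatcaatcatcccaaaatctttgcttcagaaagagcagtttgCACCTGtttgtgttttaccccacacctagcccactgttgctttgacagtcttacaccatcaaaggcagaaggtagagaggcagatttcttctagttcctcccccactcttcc
Cd3e, chr9:45009612-45009861, minus strand: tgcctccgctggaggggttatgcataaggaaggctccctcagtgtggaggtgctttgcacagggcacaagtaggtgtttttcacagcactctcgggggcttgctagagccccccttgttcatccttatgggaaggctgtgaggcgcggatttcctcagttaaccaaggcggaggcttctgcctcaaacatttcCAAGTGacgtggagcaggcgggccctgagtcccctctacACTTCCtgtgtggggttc
The GC content of these windows was 51.6% for Cd3g, 41.2% for Cd3d and 57.2% for Cd3e, where the median over 32851 RefSeq promoter windows was 52.4%. Cd3g had 3 E-boxes and no ETS core, and Cd3d and Cd3e each had an E-box and an ETS core.

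Cd3g, the CD3γ chain, was highest with both agents and lowest with neither. It had 1144, 1218 and 1123 CPM in TGFβ + RA libraries and 892, 851 and 885 CPM in TGFβ libraries. Cd3g had 810, 831 and 718 CPM in RA libraries and 615, 639 and 624 CPM in IL-2 + IL-15 libraries. No value of one group overlapped those of another for Cd3g. The log2 fold change against IL-2 + IL-15 was 0.89 ± 0.058 (SE; adjusted p = 1.96e-08, edgeR) for TGFβ + RA, 0.48 ± 0.058 (adjusted p = 1.74e-05) for TGFβ and 0.33 ± 0.058 (adjusted p = 0.000894) for RA. TGFβ + RA cultures also exceeded TGFβ cultures by 0.41 ± 0.058 and RA cultures by 0.56 ± 0.058 on the log2 scale for Cd3g (adjusted p = 7.29e-05 and 2.28e-06).

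Cd3e, the ε chain that pairs with both CD3γ and CD3δ, had the same order of group means. It had 798, 787 and 710 CPM in TGFβ + RA libraries and 538, 562 and 604 CPM in TGFβ libraries. Cd3e had 541, 518 and 517 CPM in RA libraries and 392, 467 and 464 CPM in IL-2 + IL-15 libraries. The 3 TGFβ + RA values lay above all others, and the TGFβ values overlapped those of RA. Cd3e rose by a log2 fold change of 0.80 ± 0.072 in TGFβ + RA, 0.37 ± 0.072 in TGFβ and 0.25 ± 0.072 in RA cultures relative to IL-2 + IL-15 (adjusted p = 4.69e-07, 0.00102 and 0.0181, edgeR). Leaving out IL-2 + IL-15 replicate 1 ended the RA call for Cd3e, at 0.19 (adjusted p = 0.0513). With both agents, Cd3e was 0.43 ± 0.072 above TGFβ cultures and 0.54 ± 0.072 above RA cultures on the log2 scale (adjusted p = 0.000272 and 2.22e-05). Of the annotated exon bases of Cd3e, 3.31% also belong to Gm48719 on the other strand. Whether reads were counted by strand is not given in the sources used here.

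Cd3d, the δ chain, had the smallest fold changes of the 3 neighbours. It had 550, 565 and 554 CPM in TGFβ + RA libraries and 524, 506 and 521 CPM in TGFβ libraries. Cd3d had 494, 499 and 485 CPM in RA libraries and 458, 482 and 446 CPM in IL-2 + IL-15 libraries. The groups did not overlap, although RA replicate 3 at 485 CPM came close to IL-2 + IL-15 replicate 2 at 482 CPM. Relative to IL-2 + IL-15, Cd3d rose by 0.27 ± 0.043 (log2) in TGFβ + RA and by 0.16 ± 0.043 in TGFβ cultures (adjusted p = 0.00011 and 0.00793, edgeR), and its RA difference of 0.09 ± 0.043 was not called (adjusted p = 0.134). TGFβ + RA cultures were 0.18 ± 0.043 above RA cultures for Cd3d (adjusted p = 0.0033), and the difference from TGFβ cultures of 0.11 ± 0.043 was not called (adjusted p = 0.0648).

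γδ T cells use the same CD3 chains, and γ chain constant genes moved with the groups. The summed level of Trdc, Tcrg-C1, Tcrg-C2, Tcrg-C4 and Sox13 was 623 to 713 CPM in TGFβ + RA libraries, 441 to 484 CPM in TGFβ libraries, 189.9 to 309.6 CPM in RA libraries and 165 to 225 CPM in IL-2 + IL-15 libraries. Of the 4 of these genes that passed the filter, Tcrg-C1, Tcrg-C2 and Tcrg-C4 rose in TGFβ + RA relative to IL-2 + IL-15 cultures, by 1.07, 2.27 and 1.88 on the log2 scale, and Trdc, the δ constant region, fell by 1.27. Trdc had 12.8, 23.7 and 13.6 CPM in TGFβ + RA libraries and 23.2, 27.8 and 24.6 CPM in TGFβ libraries. It had 43.5, 59.5 and 31.4 CPM in RA libraries and 38.5, 49.3 and 35.3 CPM in IL-2 + IL-15 libraries. Sox13, a γδ lineage factor, had at most 8 counts in any library. The cells these transcripts came from are not known from bulk RNA, and their part in the CD3 differences was not tested.

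**Figure D2:**
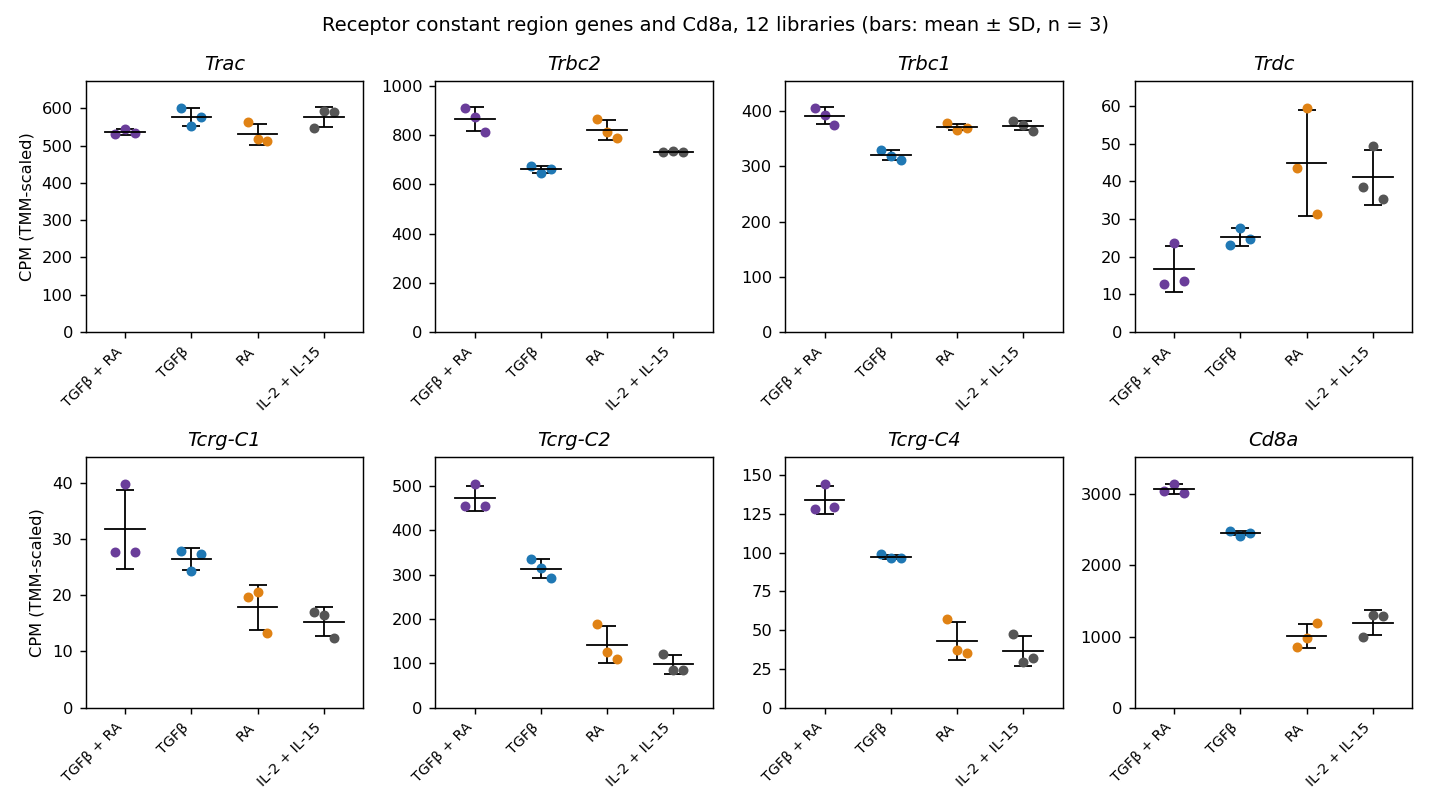
Levels of receptor constant region genes and of the coreceptor gene Cd8a in the 12 libraries, in TMM-scaled CPM with means and SD (n = 3). Tcrg-C2 lies at 454 to 505 CPM in TGFβ + RA libraries, against 84.9 to 122 CPM in IL-2 + IL-15 libraries, while Trac lies at 531 to 545 CPM in TGFβ + RA libraries, against 546 to 593 CPM in IL-2 + IL-15 libraries.

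Cd247 (ENSMUSG00000005763; chromosome 1, 165788681 to 165877277, plus strand), which encodes the ζ chain with the most ITAMs of the complex, was not called in either group with TGFβ relative to IL-2 + IL-15. It had 195, 205 and 214 CPM in TGFβ + RA libraries and 200, 199 and 200 CPM in TGFβ libraries. Cd247 had 168, 169 and 183 CPM in RA libraries and 182, 201 and 202 CPM in IL-2 + IL-15 libraries. Only the RA libraries tended to lie lower, and 1 of them lay within the IL-2 + IL-15 range. The log2 fold change against IL-2 + IL-15 was 0.07 ± 0.054 for TGFβ + RA and 0.03 ± 0.054 for TGFβ, neither called (adjusted p = 0.27 and 0.66, edgeR), and -0.17 ± 0.054 for RA (adjusted p = 0.0323). That RA call for Cd247 was lost without RA replicate 1 or 2, or without IL-2 + IL-15 replicate 2 or 3 (log2 fold changes of -0.13 to -0.14, adjusted p = 0.122 to 0.138). TGFβ + RA cultures were 0.24 ± 0.054 above RA cultures (adjusted p = 0.00171), and 0.04 ± 0.054 from TGFβ cultures (adjusted p = 0.608). Of the annotated exon bases of Cd247, 56.4% also belong to Pou2f1 on the opposite strand. Unless reads were counted by strand, reads over those shared bases cannot be told apart between the 2 genes.

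Trbc1 (ENSMUSG00000076490; chromosome 6, 41538218 to 41539881, plus strand) and Trbc2 (ENSMUSG00000076498; chromosome 6, 41546730 to 41548352, plus strand) encode the alternative constant regions of the receptor β chain. In the longest annotated transcript of each in GENCODE M21, the coding sequences of 518 bases are 95.6% identical, and the first 259 bases are the same. The last 150 coding bases, positions 369 to 518 counted from the first coding base, hold 22 of the 23 coding differences and are shown for that reason, with differing bases in capitals. Exon bases outside the coding part were not compared.
Trbc1: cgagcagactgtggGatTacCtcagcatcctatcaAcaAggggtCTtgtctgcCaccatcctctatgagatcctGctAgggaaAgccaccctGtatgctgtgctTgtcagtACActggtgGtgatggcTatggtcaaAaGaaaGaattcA
Trbc2: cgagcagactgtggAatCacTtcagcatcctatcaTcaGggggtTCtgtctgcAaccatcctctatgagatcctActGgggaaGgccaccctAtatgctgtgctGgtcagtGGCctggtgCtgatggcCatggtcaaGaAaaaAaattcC
How reads matching both copies were counted is not given in the sources used here, so the split between them is uncertain. Trbc1 made up 31.2% ± 0.39 of the counts of both genes in TGFβ + RA libraries, 32.7% ± 0.57 in TGFβ libraries, 31.2% ± 0.77 in RA libraries and 33.8% ± 0.49 in IL-2 + IL-15 libraries (SD, n = 3 each).

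Trbc2 had 910, 874 and 812 CPM in TGFβ + RA libraries and 673, 646 and 662 CPM in TGFβ libraries. Trbc2 had 863, 812 and 786 CPM in RA libraries and 731, 733 and 729 CPM in IL-2 + IL-15 libraries. The TGFβ libraries were the lowest, and the TGFβ + RA and RA libraries overlapped. Against IL-2 + IL-15, Trbc2 differed by 0.24 ± 0.052 (log2) in TGFβ + RA, by -0.15 ± 0.052 in TGFβ and by 0.17 ± 0.052 in RA cultures (adjusted p = 0.00117, 0.037 and 0.0313, edgeR). The TGFβ call for Trbc2 was lost when any 1 TGFβ library, any 1 IL-2 + IL-15 library or TGFβ + RA replicate 2 was left out (-0.13 to -0.16, adjusted p = 0.0522 to 0.12), and the RA call without IL-2 + IL-15 replicate 2 or 3 or RA replicate 1 (0.14 to 0.18, adjusted p = 0.0593 to 0.0904). TGFβ + RA cultures exceeded TGFβ cultures by 0.39 ± 0.052 for Trbc2 (adjusted p = 4.34e-05), and the 0.08 ± 0.052 above RA cultures was not called (adjusted p = 0.22).

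Trbc1 had 406, 394 and 375 CPM in TGFβ + RA libraries and 330, 319 and 312 CPM in TGFβ libraries. Trbc1 had 378, 366 and 370 CPM in RA libraries and 383, 375 and 365 CPM in IL-2 + IL-15 libraries. Its TGFβ libraries lay below all others, and the remaining groups overlapped. Trbc1 fell by 0.22 on the log2 scale (SE 0.044; adjusted p = 0.00116, edgeR) in TGFβ relative to IL-2 + IL-15 cultures, and TGFβ + RA cultures exceeded TGFβ cultures by 0.29 ± 0.045 (adjusted p = 0.000138). Its differences from IL-2 + IL-15 were 0.07 ± 0.044 in TGFβ + RA and -0.01 ± 0.044 in RA cultures (adjusted p = 0.208 and 0.891). The sum of both β constant genes averaged 1257 ± 64.8 CPM in TGFβ + RA, 981 ± 19.2 CPM in TGFβ, 1192 ± 43.9 CPM in RA and 1105 ± 9.98 CPM in IL-2 + IL-15 libraries (SD, n = 3 each), a sum that does not depend on the split. Trac, the α constant region, differed from IL-2 + IL-15 by -0.10 in TGFβ + RA, 0.002 in TGFβ and -0.12 in RA cultures, none of them called (adjusted p = 0.107, 0.981 and 0.115).

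Lck (ENSMUSG00000000409; chromosome 4, 129548344 to 129573641, minus strand), the Src-family kinase that starts the cascade, spanned 978 to 1197 CPM over the 12 libraries. It had 1157, 1197 and 1180 CPM in TGFβ + RA libraries and 1136, 1058 and 1072 CPM in TGFβ libraries. Lck had 1009, 988 and 978 CPM in RA libraries and 1105, 1100 and 1068 CPM in IL-2 + IL-15 libraries. The RA libraries were lowest and the TGFβ + RA libraries highest, and the TGFβ libraries overlapped those with neither agent. Lck differed from IL-2 + IL-15 by 0.11 ± 0.046 (log2) in TGFβ + RA, -0.003 ± 0.046 in TGFβ and -0.14 ± 0.046 in RA cultures (adjusted p = 0.0485, 0.964 and 0.0401, edgeR). Both of those Lck calls were close to the threshold. The TGFβ + RA call was lost when any 1 TGFβ + RA library, any 1 IL-2 + IL-15 library, TGFβ replicate 2 or 3, or RA replicate 1 or 2 was left out (0.10 to 0.13, adjusted p = 0.0513 to 0.137). The RA call was lost when any 1 RA library, any 1 IL-2 + IL-15 library, or replicate 2 or 3 of either TGFβ or TGFβ + RA was left out (-0.12 to -0.15, adjusted p = 0.0525 to 0.135). TGFβ + RA cultures were 0.25 ± 0.046 above RA cultures for Lck (adjusted p = 0.000382). The 0.11 ± 0.046 above TGFβ cultures was not called (adjusted p = 0.0599), but was called without TGFβ replicate 1 (0.15, adjusted p = 0.0414) or without RA replicate 3 (0.11, adjusted p = 0.0442).

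Zap70 (ENSMUSG00000026117; chromosome 1, 36761798 to 36782818, plus strand), the Syk-family kinase that docks on ITAMs, was highest with RA alone. It had 224, 237 and 239 CPM in TGFβ + RA libraries and 203, 184 and 193 CPM in TGFβ libraries. Zap70 had 323, 294 and 271 CPM in RA libraries and 238, 218 and 217 CPM in IL-2 + IL-15 libraries. All RA libraries lay above and all TGFβ libraries below the other groups, and TGFβ + RA overlapped IL-2 + IL-15. The log2 fold change against IL-2 + IL-15 was 0.06 ± 0.065 in TGFβ + RA, -0.21 ± 0.066 in TGFβ and 0.40 ± 0.065 in RA cultures (adjusted p = 0.459, 0.0181 and 0.000492, edgeR). Leaving out IL-2 + IL-15 replicate 1, TGFβ replicate 2 or TGFβ replicate 3 ended the TGFβ call for Zap70 (-0.17 to -0.21, adjusted p = 0.052 to 0.0839). TGFβ + RA cultures were 0.27 ± 0.066 above TGFβ cultures and 0.34 lower than RA cultures for Zap70 (log2 fold change of -0.34 ± 0.065; adjusted p = 0.00455 and 0.000482). NK cells also express Zap70 and Cd247, and the summed level of the NK genes Klrb1c, Tyrobp, Fcer1g and Ncr1 was 5.61 to 8.63 CPM in TGFβ + RA, 2.88 to 4.33 CPM in TGFβ, 23.5 to 68.8 CPM in RA and 10.9 to 22.9 CPM in IL-2 + IL-15 libraries. All 3 of these genes that passed the filter were called higher in RA than in IL-2 + IL-15 cultures, Ncr1 reached at most 14 counts, and their part in the Zap70 difference was not tested.

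Lat (ENSMUSG00000030742; chromosome 7, 126363824 to 126369570, minus strand), the membrane scaffold phosphorylated by ZAP-70, was high in both groups with TGFβ and low with RA alone. It had 823, 799 and 789 CPM in TGFβ + RA libraries and 714, 708 and 737 CPM in TGFβ libraries. Lat had 435, 418 and 461 CPM in RA libraries and 534, 516 and 556 CPM in IL-2 + IL-15 libraries. The 4 groups did not overlap. Lat differed from IL-2 + IL-15 by 0.59 ± 0.05 (log2) in TGFβ + RA, 0.43 ± 0.049 in TGFβ and -0.29 ± 0.05 in RA cultures (adjusted p = 2.38e-07, 1.22e-05 and 0.000734, edgeR). The 0.87 ± 0.05 by which Lat in TGFβ + RA exceeded RA cultures was its largest difference between groups (adjusted p = 1.06e-08). Against TGFβ cultures it was 0.16 ± 0.049 higher (adjusted p = 0.0188), a call lost without TGFβ replicate 1, TGFβ replicate 2 or TGFβ + RA replicate 1 (0.14 to 0.15, adjusted p = 0.0583 to 0.0636). Mir7058 lies within Lat and Mir8119 within Lck on the same strand, covering 2.71% and 0.854% of their exon bases.

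Cd5 (ENSMUSG00000024669; chromosome 19, 10717116 to 10739002, minus strand) was the member with the largest difference. It had 103, 88.6 and 99.4 CPM in TGFβ + RA libraries and 194, 197 and 219 CPM in TGFβ libraries. Cd5 had 174, 189 and 197 CPM in RA libraries and 266, 273 and 252 CPM in IL-2 + IL-15 libraries. The TGFβ + RA libraries were the lowest and those with neither agent the highest, while TGFβ and RA libraries overlapped. Cd5 fell by 1.45 on the log2 scale (SE 0.069) in TGFβ + RA, by 0.37 (SE 0.067) in TGFβ and by 0.50 (SE 0.067) in RA cultures relative to IL-2 + IL-15 (adjusted p = 9.51e-10, 0.000524 and 0.000115, edgeR), which leaves 0.367, 0.771 and 0.708 of the IL-2 + IL-15 level. Against TGFβ cultures the TGFβ + RA cultures fell by 1.07 (SE 0.069), and against RA cultures by 0.95 (SE 0.069), for Cd5 (adjusted p = 3.22e-08 and 8.06e-08). Its upstream window is shown beside those of the CD3 genes because it moved the other way, in the same notation.
Cd5, chr19:10738975-10739224, minus strand: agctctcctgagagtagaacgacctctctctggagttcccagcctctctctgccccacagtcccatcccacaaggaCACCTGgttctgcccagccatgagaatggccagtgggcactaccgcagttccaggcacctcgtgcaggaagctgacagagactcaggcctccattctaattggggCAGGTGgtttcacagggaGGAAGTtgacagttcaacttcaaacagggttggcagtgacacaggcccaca
RefSeq windows exist for 8 of the 10 genes (11 windows, Trbc1 and Trbc2 having none), and some genes have several. The ETS core GGAAGT, searched on both strands, was found in 7 of the 11 windows and in 19.7% of all 32851 windows. Those 7 belong to 6 genes (Cd3d, Cd3e, Cd247, Lck, Zap70 and Cd5). An E-box (CANNTG, its own complement) was found in 10 of the 11 and in 66.2% of all windows, with at least 1 for each of the 8 genes. The RUNX letters TGTGGT were found in 2 of the 11 windows (Lck and Zap70) and in 14% of all windows. The SMAD palindrome GTCTAGAC, searched on both strands, was found in 0 of the 11 windows and in 55 of all windows, and a retinoic acid receptor direct repeat (AGGTCA, 5 bases, AGGTCA) in 0 of the 11 and in 3 of all windows. A match to letters is a description of the window.

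**Figure D3:**
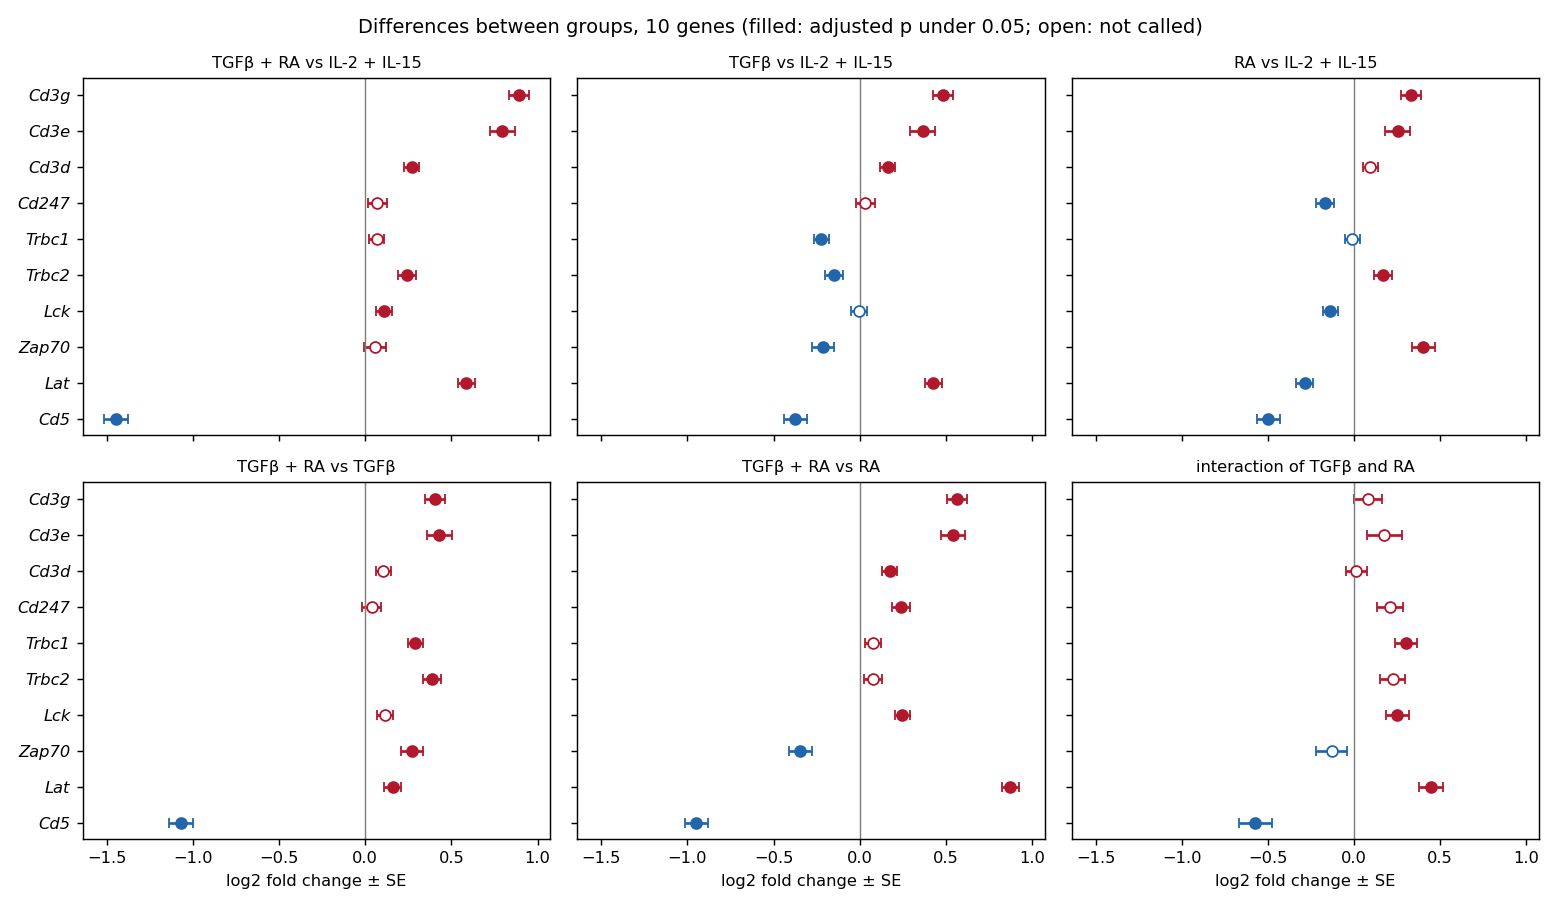
Log2 fold change with SE of the 10 genes in the 5 comparisons of groups and in the interaction, where filled points were called by edgeR at an adjusted p under 0.05 and open points were not. Cd5 lies left of 0 in every panel, at -1.45 between TGFβ + RA and IL-2 + IL-15, and Cd3g and Cd3e lie right of 0 in every panel, with open points in the interaction.

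Whether TGFβ and RA together changed a gene by other than the sum of their separate log2 changes was tested as an interaction, the effect of RA with TGFβ minus its effect without. Of the 10 genes, 3 were called higher (Lat, Trbc1 and Lck) and Cd5 lower, with 19.3% of all tested genes called, 6.95% higher and 12.3% lower. The interaction was 0.45 ± 0.07 for Lat, 0.30 ± 0.063 for Trbc1, 0.25 ± 0.065 for Lck and -0.57 ± 0.096 for Cd5 (adjusted p = 0.000599, 0.00465, 0.0156 and 0.00097, edgeR). Lat fell with RA in the absence of TGFβ and was higher with RA in its presence. For Cd3g, Cd3e and Cd3d the interaction was 0.08 ± 0.082, 0.18 ± 0.1 and 0.01 ± 0.061, none called (adjusted p = 0.547, 0.248 and 0.919), which does not show that their effects add up. Trbc2 had 0.22 ± 0.074 and was not called, close to the threshold (adjusted p = 0.0502), and its split from Trbc1 is uncertain. Lck was not called without IL-2 + IL-15 replicate 2 (0.23, adjusted p = 0.0529). Cd247 was called without IL-2 + IL-15 replicate 1 (0.24, adjusted p = 0.0321) or RA replicate 3 (0.23, adjusted p = 0.0259), and Trbc2 without TGFβ + RA replicate 3 (0.27, adjusted p = 0.0289). Without the 3 libraries that stood apart, 8 of the 10 genes and 29.9% of all tested genes were called, with Cd3e (0.28), Cd247 (0.25), Trbc2 (0.22) and Zap70 (-0.27) added.

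Levels of different genes were compared per length, as TPM (transcripts-per-million) computed from the counts. With the length of all annotated exons, Trbc2 was the highest of the 10 genes in every group, at 4335 ± 295 TPM in TGFβ + RA, 3291 ± 64.5 TPM in TGFβ, 3623 ± 93.9 TPM in RA and 3269 ± 39.5 TPM in IL-2 + IL-15 libraries (SD, n = 3 each), followed by Trbc1 and Lck. The lowest level was that of Cd5 in TGFβ + RA (68.2 ± 5.84 TPM) and that of Cd247 in the other groups, at 129 ± 0.81 TPM in TGFβ, 99.7 ± 8.55 TPM in RA and 113 ± 7.19 TPM in IL-2 + IL-15 libraries. Neighbours in this order overlapped for Cd3g and Lat in TGFβ and in IL-2 + IL-15 libraries, and for Cd5 and Cd247 in RA libraries. How reads matching both Trbc genes, or bases Cd247 shares with Pou2f1, were counted is not given, so the places of these genes are uncertain. Dividing the same counts by coding length alone changed the order. Reads over exon bases outside the coding part stayed in those counts, which raises genes where that part is long. Cd3g has 3269 exon bases and 546 coding bases, and Trbc2 has 692 and 518. By coding length, Cd3g at 2519 ± 92.2 TPM was the highest in TGFβ + RA libraries, against 1979 ± 127 TPM for Trbc2. Cd3g was also the highest in TGFβ libraries (1879 ± 29.9 TPM, against 1493 ± 17.4 TPM for Trbc2), while Trbc2 stayed the highest in RA and IL-2 + IL-15 libraries. The lowest per coding length was Cd5 in TGFβ + RA and RA libraries, and Zap70 in TGFβ and IL-2 + IL-15 libraries. Among the CD3 chains, Cd3e was lowest per exon length in every group, at 650 ± 46.5 TPM in TGFβ + RA and 334 ± 34 TPM in IL-2 + IL-15 libraries, while per coding length Cd3d had the lowest mean in every group. In IL-2 + IL-15 libraries that gap, 807 ± 36.3 TPM for Cd3d beside 831 ± 85.6 TPM for Cd3e, was smaller than the spread between replicates.

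**Figure D4:**
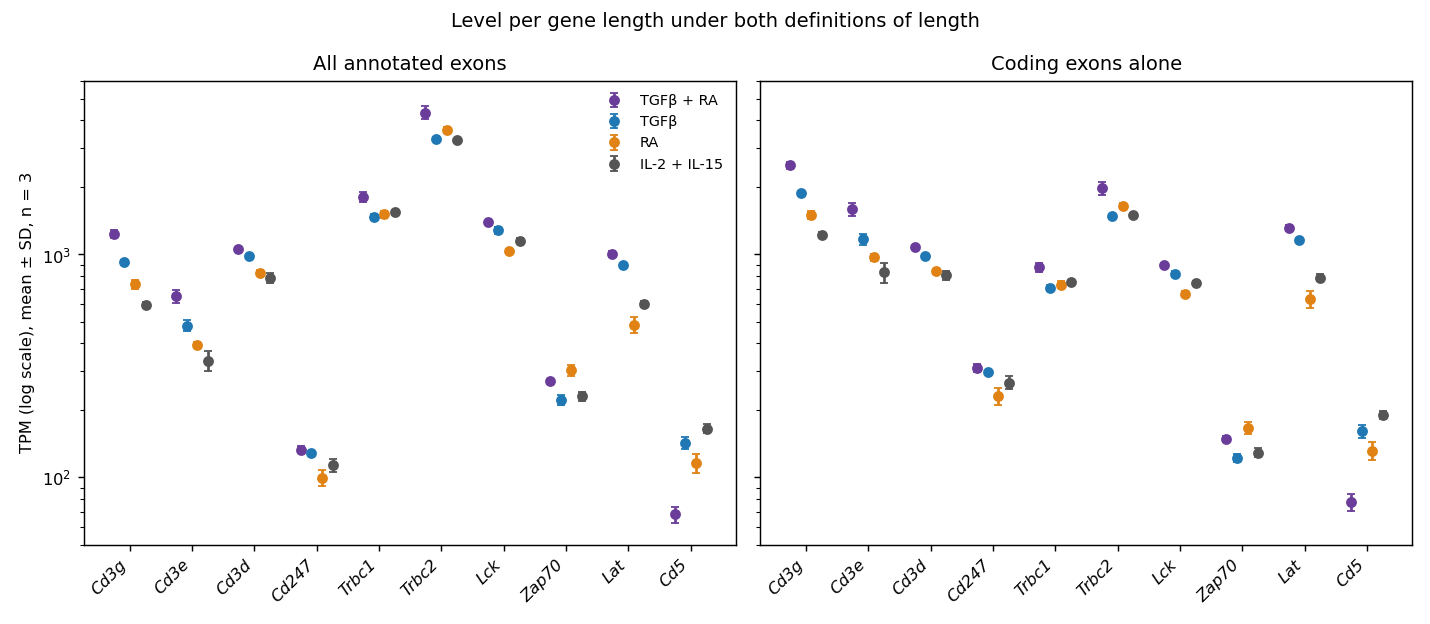
Mean level per gene length in TPM (log scale, bars SD, n = 3) for the 10 genes and 4 groups. The same gene counts were divided by the length of all annotated exons at left and by coding length alone at right. Trbc2 is highest in every group per exon length, and per coding length Cd3g is highest in TGFβ + RA (2519 TPM) and TGFβ libraries (1879 TPM).

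Beyond the 10 genes, a list of 71 other genes of receptor signalling was examined, of which 67 passed the filter. Between TGFβ + RA and IL-2 + IL-15 cultures 17 were called higher and 33 lower, where 63.2% of all genes were called, with a median log2 difference of -0.13, where the median over all tested genes was 0.0016. The TGFβ comparison gave 12 higher and 32 lower (43.1% of all genes called) and the RA comparison 16 higher and 12 lower (26.7% of all). Against TGFβ cultures, TGFβ + RA cultures had 18 higher and 22 lower (43% of all), and against RA cultures 16 higher and 37 lower (60.2% of all). The counts by role below, all between TGFβ + RA and IL-2 + IL-15, stand beside 30.8% of all genes called higher and 32.4% called lower. The named genes are up to 3 of each role with the smallest adjusted p between TGFβ + RA and IL-2 + IL-15.

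Coreceptor, adhesion and costimulation genes moved in both directions with both agents. Of 7 such genes, 3 were higher (Cd8a, Cd226 and Cd8b1) and 4 lower (Cd28, Itgal, Slamf6 and Cd2) in TGFβ + RA than in IL-2 + IL-15 cultures. The coreceptor chain gene Cd8a, like the others outside Cd28, Itgal and Cd2, was chosen after its values were seen. CD8α binds LCK through its tail, and Cd8a had 3045, 3145 and 3020 CPM in TGFβ + RA libraries, against 989, 1300 and 1283 CPM in IL-2 + IL-15 libraries (log2 fold change 1.37 ± 0.114, adjusted p = 2.08e-07, edgeR). Cd28, the main costimulatory receptor, had 45.9, 38.4 and 41 CPM in TGFβ + RA libraries, against 180, 183 and 199 CPM in IL-2 + IL-15 libraries (log2 fold change -2.17 ± 0.07, adjusted p = 3.12e-11, edgeR). Itgal, the α chain of the integrin LFA-1, had 356, 375 and 420 CPM in TGFβ + RA libraries, against 1695, 1641 and 1616 CPM in IL-2 + IL-15 libraries (-2.10 ± 0.072, adjusted p = 5.18e-11). Cd28 and Itgal did not overlap between those groups. The interaction was called for both, at -1.10 ± 0.095 for Cd28 and -1.12 ± 0.098 for Itgal (adjusted p = 6.01e-06 and 6.34e-06). Cd2, an adhesion receptor, was lower by a log2 fold change of -0.54 ± 0.041 in TGFβ + RA and -0.53 ± 0.042 in TGFβ cultures, and was not called in RA cultures (0.02 ± 0.041).

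Of 7 genes for other kinases and the phosphatase CD45, 3 were higher and 2 lower in TGFβ + RA than in IL-2 + IL-15 cultures. The kinase gene Txk rose by 1.38 ± 0.133 on the log2 scale (adjusted p = 9.37e-07, edgeR). Txk had 91.4, 106 and 95.4 CPM in TGFβ + RA libraries and 37.9, 39.9 and 40.3 CPM in TGFβ libraries. Txk had 86.5, 65.6 and 51.4 CPM in RA libraries and 36.9, 39.3 and 36.8 CPM in IL-2 + IL-15 libraries, so that both groups with RA lay above both without it. Prkcq, which encodes the protein kinase C that links the receptor to NF-κB, fell by 0.74 in TGFβ + RA cultures, by 0.37 in TGFβ and by 0.39 in RA cultures (adjusted p = 7.66e-08, 0.000114 and 0.000156).

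Among 17 adaptors and scaffolds, 2 were higher and 12 lower in TGFβ + RA than in IL-2 + IL-15 cultures, where the scaffold Lat rose. Themis, a regulator of receptor signalling that acts during thymic selection, changed by -0.87 ± 0.046, Nck2, an adaptor to the cytoskeleton, by -1.59 ± 0.098, and Sh2d1a, the SLAM-associated adaptor SAP, by -1.79 ± 0.124 (log2; adjusted p = 2.5e-09, 1.12e-08 and 3.34e-08, edgeR). Sh2d1a had 29, 23.1 and 21.5 CPM in TGFβ + RA libraries and 46.1, 43.5 and 35.1 CPM in TGFβ libraries. Sh2d1a had 75.2, 61.3 and 59.3 CPM in RA libraries and 89.8, 84.6 and 78.9 CPM in IL-2 + IL-15 libraries, with no overlap between groups. Of 16 downstream effectors, 2 were higher and 4 lower, including Malt1, a protease of the NF-κB branch (-0.47 ± 0.061), and Vav3, a guanine nucleotide exchange factor (-0.44 ± 0.094), while Nfatc2, a calcium-dependent transcription factor, rose by 0.18 ± 0.052 (adjusted p = 1.52e-05, 0.00117 and 0.00751).

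Negative regulators moved in both directions beside Cd5. Of 18 tested, 7 were higher and 10 lower in TGFβ + RA than in IL-2 + IL-15 cultures. The related docking proteins Dok1 and Dok2 went opposite ways: Dok1 had 86.4, 90.1 and 82.9 CPM in TGFβ + RA libraries, against 31.1, 33 and 30.9 CPM in IL-2 + IL-15 libraries (1.45 ± 0.056, adjusted p = 1.57e-10, edgeR), and Dok2 had 67.2, 74.4 and 76.8 CPM in TGFβ + RA libraries, against 205, 191 and 179 CPM in IL-2 + IL-15 libraries (-1.39 ± 0.07, adjusted p = 1.48e-09). Neither gene overlapped between these groups. Sla2, an adaptor that promotes receptor downregulation, rose by 0.76 ± 0.057 in TGFβ + RA and by 0.70 ± 0.057 in TGFβ cultures (adjusted p = 6.81e-08 and 5.03e-07).

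**Figure D5:**
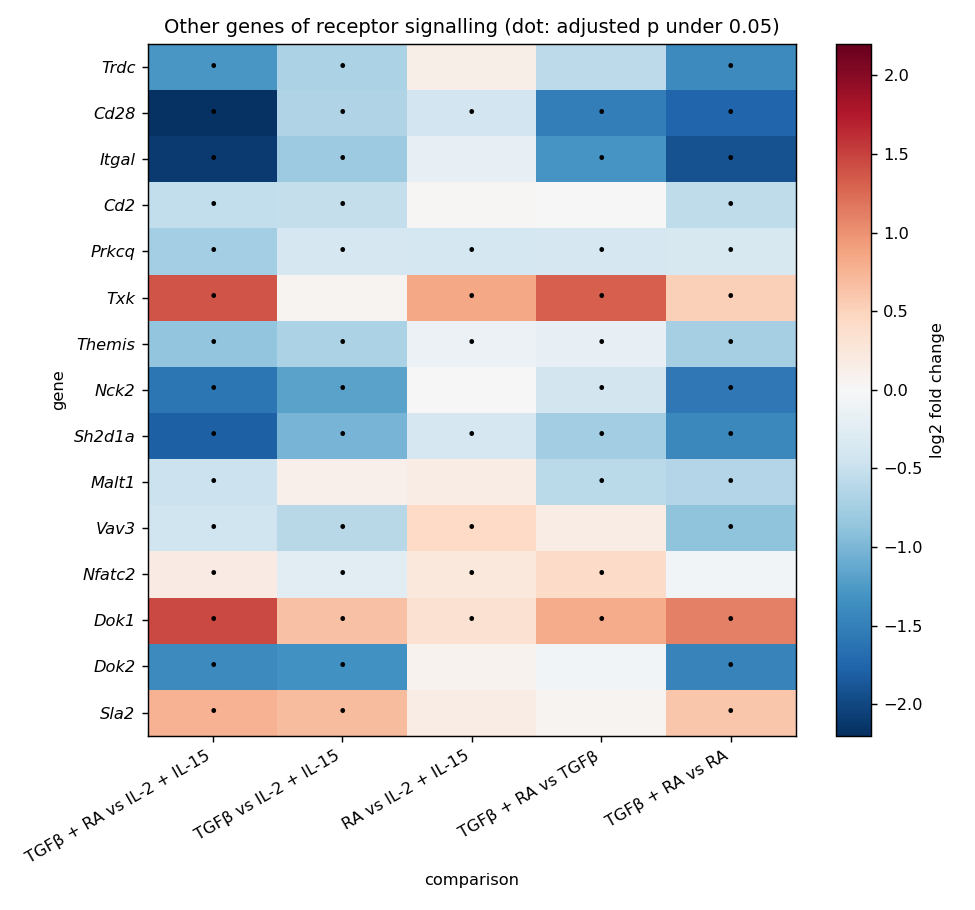
Log2 fold change (colour) of the 15 named genes of receptor signalling beyond the 10 members in the 5 comparisons of groups, with a dot where edgeR's adjusted p was under 0.05. Cd28 at -2.17 and Itgal at -2.10 are the deepest blue in the column of TGFβ + RA and IL-2 + IL-15, and Dok1 at 1.45 and Txk at 1.38 the deepest red.

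The genes whose 4 group means most resembled the mean profile of Cd3g, Cd3d and Cd3e were Tex261, Xpc, Trim62, Mterf2 and Setd7, with a root mean square difference of 0.011 to 0.0188 on the log2 scale over the 4 groups. The CD3 genes themselves differed from their own mean profile by 0.0555 for Cd3e, 0.0857 for Cd3g and 0.138 for Cd3d. As these genes make up that mean, they lie closer to it by construction than genes outside it. Among the other members, Lck (0.196), Cd247 (0.21), Trbc2 (0.212), Lat (0.233), Trbc1 (0.243) and Zap70 (0.336) were farther away, and Cd5 was farthest, at 0.76. With 4 points per profile these are descriptions.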

How the data were processed

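The authors deposited raw read counts per gene for each of 12 libraries, whole numbers that were not normalized. Per the labels, RNA was isolated with the RNeasy Micro kit and libraries were prepared with an Illumina TruSeq stranded mRNA kit. Alignment with STAR, counting with featureCounts and the build GRCm38 come from the submitters' processing notes, and their versions, the strand setting and the handling of reads with several matches are not given in the sources used here. A combined table repeats the same values, and its 12 columns of samples were not used. Gene models came from GENCODE M21 (98.2% of 46078 identifiers found). Groups follow the treatment in the labels, and no library was left out.

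Counts were filtered with filterByExpr (minimum count 10), scaled by TMM and fitted with a mean per group over all 12 libraries (8 residual degrees of freedom) in edgeR 4.0.16 with R 4.3.3. Quasi-likelihood tests of 5 comparisons and the interaction were adjusted by Benjamini-Hochberg over 14009 genes and called at 0.05. Each SE was derived from the log2 fold change and its F statistic. Replicates differed by more than counting noise (chi-square per degree of freedom of 3.79 to 24.0), so each was kept. Precision is set by the number of libraries: depth was 18300206 to 33477037 counts. TPM was computed from counts and annotated lengths. Named genes beyond the members are up to 3 per role list with the smallest adjusted p between TGFβ + RA and IL-2 + IL-15 among those called with a mean of at least 5 CPM. One gene that this rule named is not reported here. The members and the lists were chosen with earlier results of these data known. Alternatives were DESeq2 1.42.0 (its size factors, and its Wald test), no filter, a replicate block, only the compared groups, each library left out in turn, and, added after seeing the data, 9 libraries.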

Additional observations from a re-analysis of the deposited data

Results flagged for a closer look

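For 4 of the 10 genes the effect of RA differed between cultures with and without TGFβ, by edgeR's test of the interaction over all 12 libraries. Lat had an interaction of 0.447 on the log2 scale (adjusted p = 0.000599), rising by 0.16 with RA in TGFβ cultures, against -0.29 without TGFβ. Trbc1 had 0.301 (adjusted p = 0.00465), with 0.29 in TGFβ cultures, against -0.01 without TGFβ. Its near-identical neighbour Trbc2 had 0.224, just outside the threshold (adjusted p = 0.0502), and the split of reads between them is uncertain. Lck had 0.251 (adjusted p = 0.0156), with 0.11 in TGFβ cultures, against -0.14 without TGFβ. Of these, the 0.11 was not called (adjusted p = 0.0599) and the -0.14 was close to the threshold (adjusted p = 0.0401). The Lck interaction was not called without IL-2 + IL-15 replicate 2 (0.23, adjusted p = 0.0529). Cd5 had -0.573 (adjusted p = 0.00097), with -1.07 in TGFβ cultures, against -0.50 without TGFβ. The share of all tested genes called in this test was 19.3%.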

How the results depend on the processing

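Over the 10 genes, 976 of 1070 values under other settings kept their direction and side of the threshold, 53 lost a call, 15 gained one and 26 changed sign, none of the last being called. With only the groups compared, 5 of the 10 genes and 19.4% of all tested genes were called between RA and IL-2 + IL-15. When 1 library was left out, 5 to 8 of the 10 were called, with 20.8% to 22.3% of all genes where 5 were. The interaction called 4224 genes and 8 of the 10 with 9 libraries, against 2702 and 4 with all 12, and 2040 to 4158 genes when 1 library was left out, the highest without RA replicate 3.

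The values that changed sign follow. Relative to IL-2 + IL-15, Lck in TGFβ cultures was 0.0016 with DESeq2 size factors, 0.0029 with no filter, 0.0017 with the DESeq2 Wald test, 0.0016 with only the groups compared and 0.0064 with 9 libraries (-0.0342 to 0.0181 when 1 library was left out). Trbc1 in RA cultures was 0.0034 with only the groups compared and 0.0199 with 9 libraries (-0.0285 to 0.0169). With 9 libraries, Cd247 was -0.0142 in TGFβ and -0.0159 in TGFβ + RA cultures, and -0.0016 between TGFβ + RA and TGFβ; Nck2 in RA cultures was 0.103; and the interactions of Cd3d and Prkcq were -0.0077 and -0.0127. When 1 library was left out, Cd247 in TGFβ cultures ranged from -0.014 to 0.0595, and in RA cultures Nck2 from -0.0759 to 0.094 and Trdc from -0.121 to 0.348. Cd2 between TGFβ + RA and TGFβ ranged from -0.0292 to 0.0059, and the interaction from -0.037 to 0.0377 for Cd3d, from -0.00046 to 0.105 for Cd3g and from -0.0179 to 0.0891 for Prkcq. The cause of these changes was not tested.

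Libraries of different groups were compared by their deviations, the log2 CPM of each tested gene minus its mean in the library's group. Deviations of same-numbered libraries correlated at -0.004 to 0.341 (median 0.104, 10 of 18 pairs above 0.1). Those of unlike-numbered libraries had a median of -0.055 (1 of 36 above 0.1). Deviations within a group cancel out, so positive values for same-numbered pairs push those of unlike-numbered pairs down. In 29 of 36 cases, among the 3 libraries of another group, the deviations of a library correlated best with those of its own number. That is a hint of pairing from the data, but not every pair was above 0.1 and the labels do not say what a number shares, so the fit reported has no block. With the replicate block, Lck lost its calls relative to IL-2 + IL-15. It had -0.14 in RA (adjusted p = 0.052, edgeR) and 0.11 in TGFβ + RA cultures (adjusted p = 0.0614). The interaction added Cd247 (0.21, adjusted p = 0.0399) and Trbc2 (0.22, adjusted p = 0.0386). The block changed no other call among the 10 genes. The DESeq2 Wald test added calls for Cd3d in RA cultures (0.10, adjusted p = 0.0496), for Cd3d (0.11, adjusted p = 0.0175) and Lck (0.12, adjusted p = 0.00801) between TGFβ + RA and TGFβ, and for Trbc2 in the interaction (0.22, adjusted p = 0.0151). Depth was ample for all 10 genes, whose lowest count in a library was 1942 (Cd5), so the number of libraries limits the precision.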
